A study of Homo sapiens with 4 samples.

Results

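CXCL1, CXCL2, CXCL8, IL6, IL1A, IL1B, CCL2, CCL5, LIF and LTB encode secreted or membrane-bound signals of inflammation, and their transcripts were measured in DU145 cells, an androgen-insensitive line established from a metastasis of human prostate carcinoma. Every probe set whose platform annotation names exactly 1 gene, and that gene is one of these 10, was taken: 18 of the 40914 probe sets that name 1 gene, and 10 of 19774 genes. The knockdown group (DU145 shDCUN1D1) held 2 arrays of cells transduced with lentivirus that carried an shRNA against DCUN1D1. The control group (DU145 shGFP) held 2 arrays of cells given an shRNA against GFP, a target these cells lack. Both groups were cultured for 16 h in DMEM before RNA extraction, and the arrays are recorded as biological duplicates. The records also list DMSO, without saying for which cells. The methods name more than 1 shRNA against DCUN1D1, and the records do not tell which array carried which, nor whether the transduced cells were a clone. The records speak of stable transduction, whereas the methods describe RNA taken within days of infection.

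Chemokines of the CXC type with the ELR motif (CXCL1, CXCL2, CXCL8) attract neutrophils, and those of the CC type (CCL2, CCL5) attract monocytes and T cells. IL1A and IL1B start the interleukin-1 response, IL6 and LIF signal through the shared receptor subunit gp130 to STAT3, and LTB anchors lymphotoxin at the cell membrane. Transcription of most of these genes is switched on by NF-κB, which is held back by IκBα until the ligase SCF-βTrCP marks IκBα for the proteasome. That ligase is built on cullin 1, which works when modified with NEDD8, and DCUN1D1 promotes this modification.

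Each transcript was read by one or more probe sets, that is, sets of short probes, and the deposited value is the log2 signal of a probe set in an array. Arrays have no read depth, and the small number of arrays limits the precision here, as does the low signal. Background was read from 23 nonspecific control probe sets, which match no human transcript and differ in their number of G or C bases. The one with 20 such bases, called here the GC20 control, read 2.48 and 2.51 in the knockdown arrays and 2.97 and 3.30 in the control arrays. Knockdown replicate 1 stood apart: it correlated with the other arrays at 0.661 to 0.746 over probe sets, while the others correlated with each other at 0.827 to 0.916. The gap was wide at the 3′ end of control transcripts, where the array's probe set for GAPDH, a glycolytic enzyme, read 10.82 and 5.09 in the knockdown arrays and 5.02 and 4.68 in the controls, and that for ACTB, a cytoskeletal actin, 8.30 and 4.35 in the knockdown arrays and 4.05 and 3.95 in the controls. It was narrower for the 5′ probe set of GAPDH, at 9.67 and 7.14 in the knockdown arrays and 6.60 and 6.42 in the controls, and for the middle one, at 11.07 and 10.01 in the knockdown arrays and 9.39 and 9.05 in the controls. The 3′ signal of GAPDH thus lay below the 5′ signal in every array but knockdown replicate 1. That of ACTB lay below its 5′ signal in every array, which read 9.21 and 8.79 in the knockdown arrays and 8.52 and 8.06 in the controls. The BioB spike, added at hybridization, read 6.37 and 6.22 in the knockdown arrays and 8.22 and 10.49 in the controls. The part of these differences in the values below was not tested. DCUN1D1 itself read 1.60 and 1.45 on its brightest probe set in the knockdown arrays and 2.55 and 1.99 in the controls, a log2 fold change of −0.75 that was not past the fold bound used below and lay under the GC20 control in every array. Without control replicate 2 it was −1.02 and past that bound, while the mean over its 6 probe sets gave −0.22.

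Differences are log2 fold changes of knockdown over control. The test was limma, run on all 40914 probe sets and adjusted by Benjamini–Hochberg. Following the rule of the methods, a probe set is past the fold bound if its fold change exceeds 1.2 even at the end of the 90% interval nearest to no change, computed here from limma's standard error (SE). With 2 arrays a group, an exact two-sided permutation test of a single probe set cannot give a p below 0.333. The p-values measure the spread between these arrays only.

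Of the 18 probe sets, 1 was higher past the fold bound in the knockdown, a probe set of CCL5, and 1 was lower, a probe set of LTB. Among all probe sets, 1.18% were higher and 2.38% lower past the bound, 3.56% in all. By limma's adjusted p, 0 of the 18 were called in either direction, as were 0 of all probe sets (0% in each direction). The lowest adjusted p was 0.625. Without adjustment, at a p under 0.05, the same CCL5 probe set was higher and the same LTB probe set lower, against 2.30% and 5.25% of all probe sets. The methods' t-test on the same values, at an unadjusted p under 0.05, gave 0 of the 18 higher and 2 lower (1.94% and 5.22% of all probe sets), which were LIF and CXCL1. The CCL5 and LTB probe sets past the fold bound did not pass that test. It gave 0 of the 18 in either direction after adjustment (0.00244% higher, which is 1 probe set, and 0% lower). Over the 18, the median log2 fold change was 0.11, beside −0.01 over all probe sets. Per gene on the brightest probe set it was 0.41, beside −0.01 over all genes. Without knockdown replicate 1 these gene medians were −0.06 and 0.01. Both knockdown arrays lay above both control arrays for 4 of the 18 (17.9% of all probe sets) and below both for 5 (25.0%), so these shares lie near those of the whole table.

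**Figure D1:**
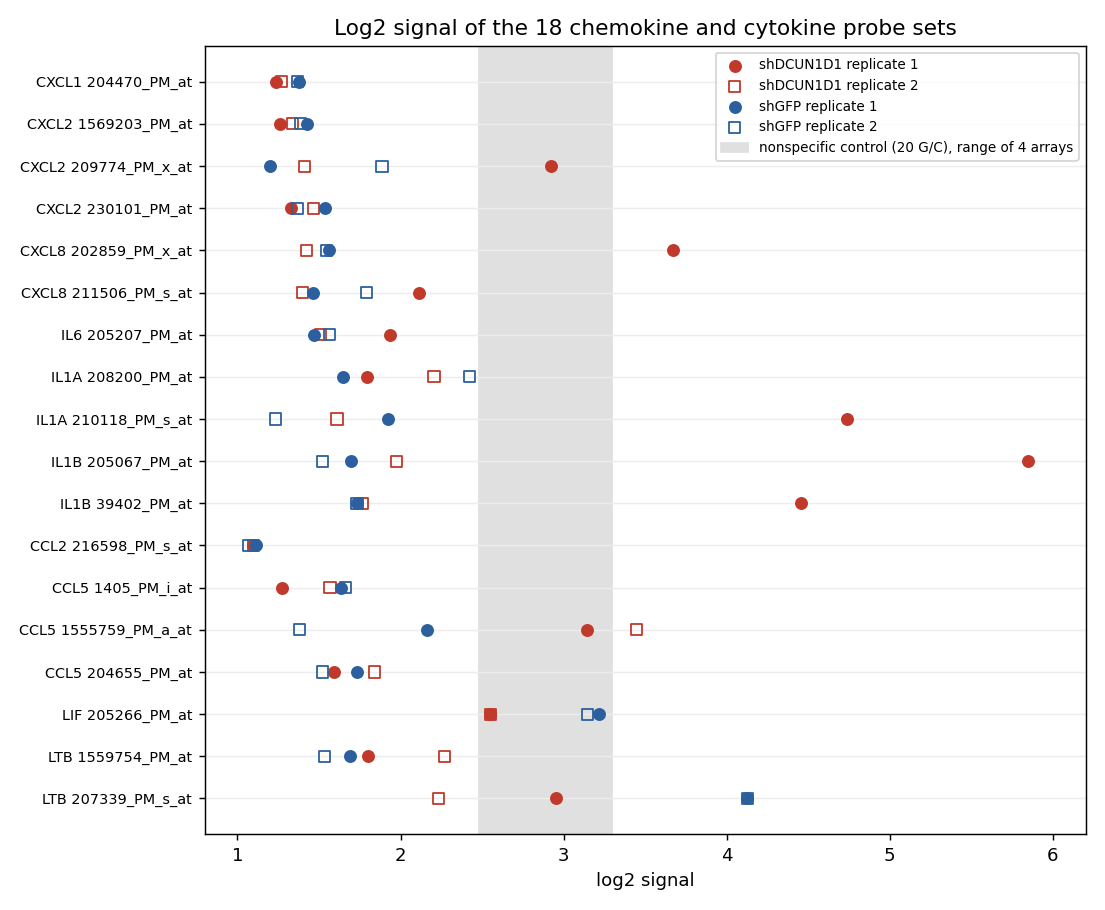
Log2 signal of each of the 18 probe sets (rows) in the 4 arrays: shDCUN1D1 in red and shGFP in blue, replicate 1 drawn as filled circles and replicate 2 as squares without fill. The grey band spans the GC20 control over the 4 arrays, 2.48 to 3.30; most points lie left of it, and those right of it include knockdown replicate 1 for IL1B (5.85 and 4.45), IL1A (4.73) and CXCL8 (3.67) and both control arrays for LTB (4.13).

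**Figure D2:**
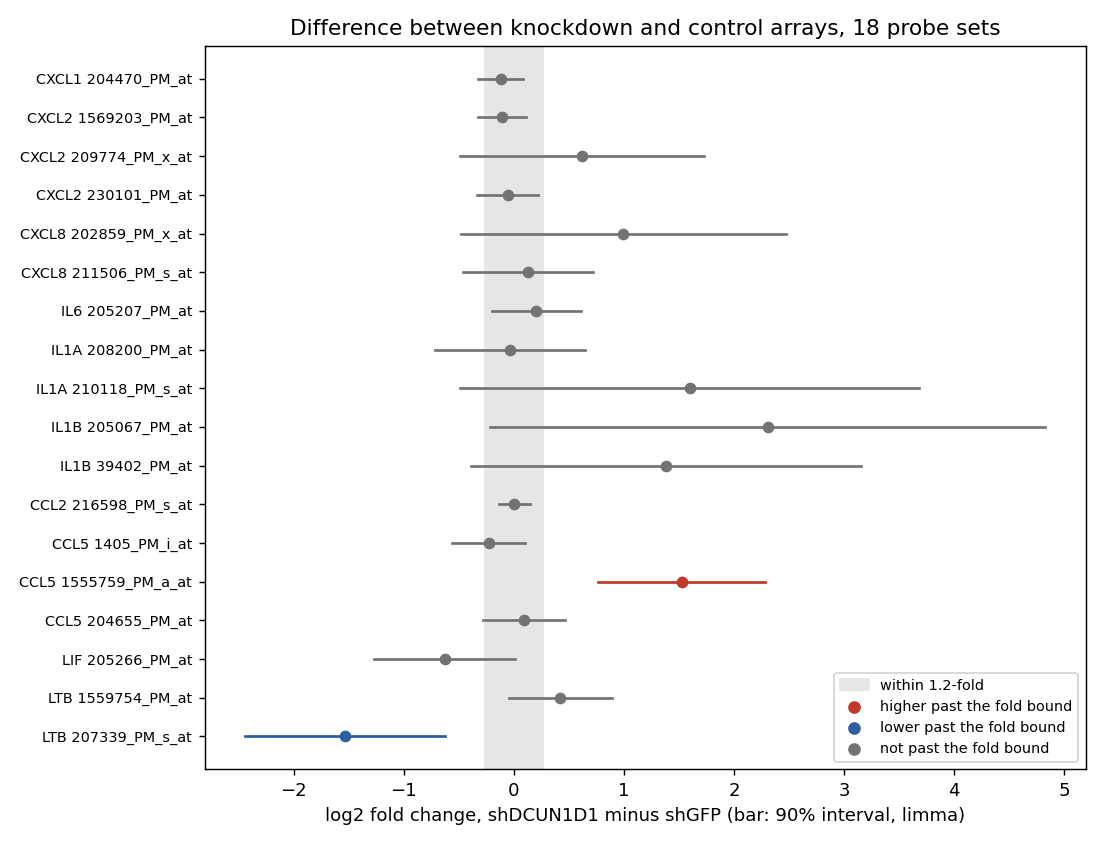
Log2 fold change of the 18 probe sets, knockdown minus control (points), with the 90% interval from limma (bars) and a grey band for changes within 1.2-fold. The interval of 1 CCL5 probe set (log2 fold change 1.52) lies wholly above the band and that of 1 LTB probe set (−1.54) wholly below it.

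Signal was low for most of these transcripts, as it was over the whole table. Of the 18 probe sets, 3 exceeded the GC20 control in both knockdown or both control arrays, against 11.5% of all probe sets. These were 1 each of CCL5, LIF and LTB. Per gene, on the brightest probe set, this held for 3 of 10, against 19.1% of all genes. The other 15 probe sets gave a level not distinguished from nonspecific binding in at least 1 array of each group. Absence of the transcript cannot be read from this, since the base content of the probes was not known here.

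The chemokines that bind CXCR2 were read by 6 probe sets, and none was past the fold bound. CXCL1, a neutrophil attractant, read 1.23 and 1.27 in the knockdown arrays and 1.38 and 1.37 in the controls. The groups did not overlap, with a log2 fold change of −0.12 (SE 0.10, 90% interval −0.32 to 0.08), and the nonspecific probe sets with 12 and 13 G or C bases, at about that signal, differed by −0.20 and −0.25 between the same arrays. CXCL2, its close paralog, read 2.92 and 1.41 on probe set 209774_PM_x_at in the knockdown arrays and 1.199 and 1.89 in the controls, so knockdown replicate 1 alone was high and the groups overlapped. Its other probe sets, 1569203_PM_at and 230101_PM_at, lay between 1.26 and 1.54 in all 4 arrays, with log2 fold changes of −0.11 and −0.06. CXCL8 (interleukin-8), a further neutrophil attractant, read 3.67 and 1.42 on 202859_PM_x_at in the knockdown arrays and 1.56 and 1.55 in the controls. Again replicate 1 stood alone, and replicate 2 lay below both controls. The log2 fold change of 0.99 had an SE of 0.73 (limma adjusted p = 0.64), and without knockdown replicate 1 it was −0.13. The other CXCL8 probe set, 211506_PM_s_at, followed the same order in the knockdown arrays, 2.11 in replicate 1 and 1.40 in replicate 2, with 1.47 and 1.79 in the controls. Probe sets ending in x_at hold probes that can bind other transcripts, and those ending in s_at probes shared by several transcripts. This applies to both probe sets of CXCL8 and to 1 each of CXCL2, IL1A, CCL2 and LTB described here, whose values are uncertain as to the transcript. CXCL1 and CXCL2 are also close in sequence.

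The promoters of these chemokines are shown because NF-κB is the factor they are known for. A further reason is that 1 probe set each of CXCL2 and CXCL8 read high in knockdown replicate 1, while that of CXCL1 did not. The other CXCL2 probe sets did not read high there. The sequences are from RefSeq (GRCh38.p14), the 250 bases before the annotated start, written 5′ to 3′ in the direction of the gene, and capitals mark matches to GGNNNTTCC, a core of the NF-κB site, on either strand.
CXCL8 (chr4:73740319-73740568, plus strand): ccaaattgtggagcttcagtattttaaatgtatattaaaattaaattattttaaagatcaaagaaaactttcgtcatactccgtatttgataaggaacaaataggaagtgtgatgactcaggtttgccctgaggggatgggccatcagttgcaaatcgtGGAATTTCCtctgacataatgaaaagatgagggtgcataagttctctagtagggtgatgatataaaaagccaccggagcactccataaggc
CXCL1 (chr4:73869143-73869392, plus strand): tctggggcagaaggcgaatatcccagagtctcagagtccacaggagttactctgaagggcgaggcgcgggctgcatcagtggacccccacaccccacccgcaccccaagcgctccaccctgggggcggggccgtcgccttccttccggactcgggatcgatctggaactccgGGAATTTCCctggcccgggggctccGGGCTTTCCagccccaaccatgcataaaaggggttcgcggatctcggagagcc
CXCL2 (chr4:74099196-74099445, minus strand): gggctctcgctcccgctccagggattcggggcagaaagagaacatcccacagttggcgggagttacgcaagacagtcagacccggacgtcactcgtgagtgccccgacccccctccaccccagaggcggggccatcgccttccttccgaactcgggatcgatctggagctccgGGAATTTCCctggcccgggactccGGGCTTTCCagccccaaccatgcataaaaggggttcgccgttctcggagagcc
CXCL1 and CXCL2 hold the same pair of matches, GGAATTTCC and GGGCTTTCC, the second at position −53 from the start in each. CXCL8 holds GGAATTTCC at −91, and IL6 holds GGATTTTCC at −72. Of the 10 genes, 7 were matched in the promoter table (not CCL2, CCL5 and LIF), and 5 of these had a match (CXCL1, CXCL2, CXCL8, IL6 and LTB), against 17.1% of 27305 promoters of the same length. IL1A and IL1B had none in this window. A match to TGANTCA, the AP-1 site, was found in CXCL8 and IL1A, against 6.6% of promoters. A match describes letters and not binding.

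The interleukin-1 genes had the largest positive log2 fold changes of the 10 genes, and these rested on 1 array. IL1B, the secreted form that needs cleavage by caspase-1, read 5.85 and 1.98 on 205067_PM_at in the knockdown arrays and 1.70 and 1.52 in the controls. Its second probe set, 39402_PM_at, read 4.45 and 1.77 in the knockdown arrays and 1.73 and 1.73 in the controls. On both probe sets the knockdown arrays lay above both controls, replicate 2 by little and replicate 1 by far. The log2 fold change was 2.30 (SE 1.26) on the first and 1.38 (SE 0.88) on the second, neither past the fold bound. Without knockdown replicate 1 these values were 0.37 and 0.04. IL1A, which is active without that cleavage and acts as an alarm signal of damaged cells, read 4.73 and 1.61 on 210118_PM_s_at in the knockdown arrays and 1.92 and 1.23 in the controls. Replicate 2 lay between the controls, so the groups overlapped, and the log2 fold change of 1.60 (SE 1.04) was 0.03 without replicate 1. The other IL1A probe set, 208200_PM_at, read 1.79 and 2.21 in the knockdown arrays and 1.65 and 2.42 in the controls, a log2 fold change of −0.03. The probe sets of IL1A thus disagreed, while those of IL1B agreed in replicate 1.

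IL6, a cytokine made by many carcinoma cells, read 1.93 and 1.51 in the knockdown arrays and 1.47 and 1.57 in the controls. Its log2 fold change of 0.20 (SE 0.20, 90% interval −0.20 to 0.61) was −0.01 without knockdown replicate 1. LIF, a cytokine of the IL6 family named for its effect on leukaemia cells, read 2.55 and 2.55 in the knockdown arrays and 3.22 and 3.15 in the controls. The groups were separate and each was tight, and the log2 fold change of −0.63 (SE 0.32; limma adjusted p = 0.625) stayed short of the fold bound, with a 90% interval of −1.27 to 0.01. The GC20 control, at about the same signal, differed by −0.64 between the same arrays. The part of background in the LIF difference was not tested.

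**Figure D3:**
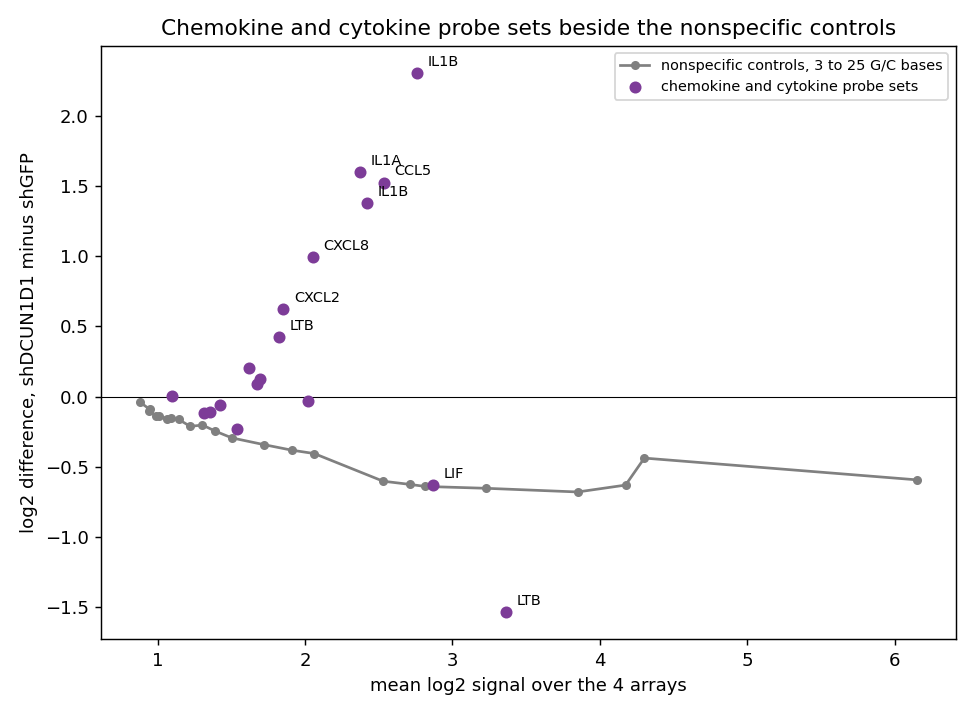
Log2 difference, knockdown minus control (vertical), plotted on the mean log2 signal of the 4 arrays (horizontal), for the 18 chemokine and cytokine probe sets (purple) and the 23 nonspecific controls (grey line, ordered by G or C bases). All nonspecific controls were lower on average in the knockdown, with differences of −0.04 to −0.68; LIF (−0.63) lies on their line, and 1 LTB probe set (−1.54) lies below it.

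CCL5 (RANTES), an attractant of T cells and monocytes, was read by 3 probe sets, of which 1 was higher. On 1555759_PM_a_at it read 3.14 and 3.45 in the knockdown arrays and 2.16 and 1.38 in the controls. Both knockdown arrays were above both controls and above the GC20 control, and both controls were below it. That control itself read lower in the knockdown arrays. Of all probe sets, 18.7% and 14.5% exceeded it in the knockdown arrays and 9.0% and 6.1% in the controls. Means were 3.29 ± 0.21 in the knockdown and 1.77 ± 0.55 in the controls (SD, n = 2 each), a log2 fold change of 1.52 or 2.88-fold (SE 0.38; limma adjusted p = 0.625), with a lower 90% bound of 1.70-fold. Both knockdown arrays contributed, with 1.67 without replicate 1 and 1.37 without replicate 2. The call was lost without control replicate 2, where the log2 fold change was 1.14. The other probe sets did not follow: 204655_PM_at read 1.59 and 1.84 in the knockdown arrays and 1.73 and 1.52 in the controls, and 1405_PM_i_at read 1.27 and 1.57 in the knockdown arrays and 1.64 and 1.66 in the controls. Their log2 fold changes were 0.09 and −0.23, and the mean over the 3 probe sets gave 0.46, not past the bound. CCL2 (MCP-1), the monocyte attractant, has 1 probe set and read 1.10 in both knockdown arrays and 1.11 and 1.07 in the controls, a log2 fold change of 0.00 (SE 0.07, 90% interval −0.14 to 0.15).

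LTB, a membrane protein of the TNF family that holds lymphotoxin alpha at the cell surface, was lower on 1 of 2 probe sets. On 207339_PM_s_at it read 2.95 and 2.23 in the knockdown arrays and 4.13 and 4.13 in the controls. The groups did not overlap, both controls were above the GC20 control, and knockdown replicate 2 was below it. Means were 2.59 ± 0.51 in the knockdown and 4.13 ± 0.002 in the controls (SD, n = 2 each), a log2 fold change of −1.54 (SE 0.45; limma adjusted p = 0.625), with a lower 90% bound of 1.54-fold. No nonspecific control differed by more than −0.68. Without knockdown replicate 1 the log2 fold change was −1.89 and without replicate 2 −1.18, and the call was lost without knockdown replicate 2 and without either control array. The second probe set, 1559754_PM_at, went the other way, with 1.80 and 2.27 in the knockdown arrays and 1.69 and 1.53 in the controls, a log2 fold change of 0.42 that was not past the bound. The mean over both probe sets gave −0.56, also not past it. The 250 bases before the LTB start hold 1 match to the NF-κB core, on the strand opposite to the gene at −86 from the start, in capitals here.
LTB (chr6:31582426-31582675, minus strand; RefSeq, GRCh38.p14): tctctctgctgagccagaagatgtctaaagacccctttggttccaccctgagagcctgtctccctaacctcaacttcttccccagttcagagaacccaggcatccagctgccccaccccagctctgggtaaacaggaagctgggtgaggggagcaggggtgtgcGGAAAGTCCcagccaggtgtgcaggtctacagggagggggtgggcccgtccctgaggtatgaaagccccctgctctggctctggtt

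Taken per gene on the brightest probe set, 1 of the 10 genes was higher (CCL5) and 1 lower (LTB) past the fold bound, against 1.57% and 3.64% of 19774 genes, 5.21% in all. As means over all probe sets of a gene, 0 of 10 passed in either direction, against 0.870% and 2.08% of genes. Both knockdown arrays lay above both controls for 2 of the 10 genes (18.4% of all genes) and below both for 3 (26.3%).

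The 2 knockdown arrays disagreed most on both probe sets of IL1B and on 1 each of IL1A, CXCL8 and CXCL2. In knockdown replicate 1, 5 of the 18 probe sets exceeded every other array by more than 1 log2, against 6.57% of all probe sets. In each of the other 3 arrays 0 of the 18 did. Few of all probe sets did so there: 0.369% in knockdown replicate 2, and 0.066% and 0.892% in control replicates 1 and 2. The 1 log2 step was chosen after the values were seen. Without knockdown replicate 2, 6 of the 18 were higher past the fold bound (these 5 and CCL5), against 9.80% of all probe sets in the same fit. limma's adjusted p under 0.05 then called 4 of them, CXCL8, IL1A and both of IL1B, against 6.31% of all probe sets. Without knockdown replicate 1 the only one higher past the bound was that of CCL5. In each case the lone knockdown array is assumed to vary like the controls.

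**Figure D4:**
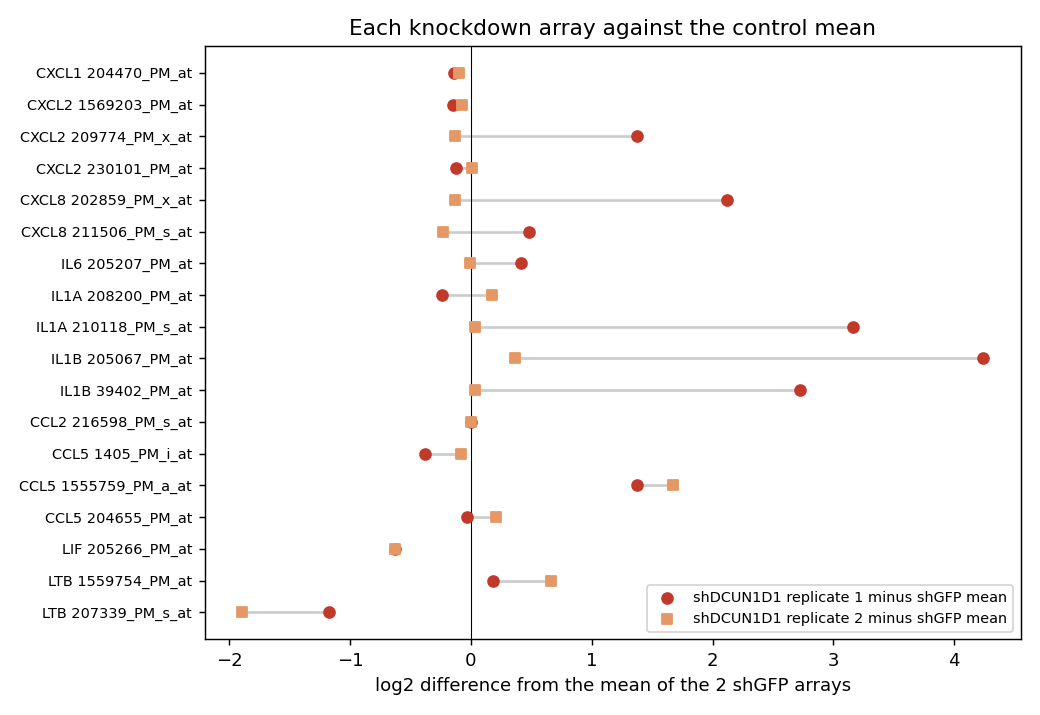
Log2 difference of each knockdown array from the mean of the 2 shGFP arrays, for the 18 probe sets: replicate 1 as red circles and replicate 2 as orange squares, joined by a grey line. The lines are long for IL1B (4.24 against 0.37 and 2.72 against 0.04), IL1A (3.16 against 0.03), CXCL8 (2.12 against −0.13) and CXCL2 (1.38 against −0.13), and short for CCL5 (1.37 against 1.67).

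Other genes of these pathways also read high in knockdown replicate 1 alone, and those given here were picked after their values were seen. SOD2, the mitochondrial superoxide dismutase, read 6.62 on its brightest probe set in knockdown replicate 1 and 1.88 in replicate 2, against 1.68 and 1.53 in the controls. IER3, an early response gene, read 5.41 and 1.98 in the knockdown arrays and 2.48 and 2.58 in the controls. PTX3, a soluble pattern recognition protein, read 4.76 and 1.37 in the knockdown arrays and 1.19 and 1.42 in the controls. TNFAIP3 (A20), an inhibitor of NF-κB from the list of its regulators, read 4.23 and 2.37 in the knockdown arrays and 2.26 and 2.21 in the controls. Over the list of other NF-κB target genes this held for 5 of 67 probe sets, or 7.46%, close to the 6.57% of the whole table. Among other chemokines it held for 0 of 45 probe sets and among other cytokines for 0 of 43. For NF-κB factors and regulators it held for 2 of 61 probe sets (3.28%). For the IκB ubiquitin ligase and its neddylation it held for 3 of 27 (11.1%).

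The same array was also high for some markers of the cell line. Of 35 probe sets for epithelial carcinoma markers, 10 were more than 1 log2 above the other 3 arrays, among them KRT18, a keratin of simple epithelia, with 7.62 and 1.69 in the knockdown arrays and 1.68 and 1.63 in the controls. The other 9 were 7 probe sets of CD44 and 2 of EGFR, so all 10 came from 3 genes. Other epithelial markers were not high there: EPCAM read 1.88 and 2.04 in the knockdown arrays and 2.18 and 2.53 in the controls, and the brightest KRT19 probe set 1.68 and 2.01 in the knockdown arrays and 2.30 and 2.46 in the controls. CD44 also disagreed among its 13 probe sets, since the brightest, at 2.74 and 2.84 in the knockdown arrays and 3.72 and 4.05 in the controls, was lower past the fold bound. KRT18 was thus at background in 3 of the 4 arrays of an epithelial line. Of 9 such markers, 4 were above the GC20 control in knockdown replicate 1, 2 in replicate 2 and 2 in each control array. Markers of leukocytes were not high: 0 of their 27 probe sets stood out in knockdown replicate 1. PTPRC (CD45) read 1.36 and 1.60 in the knockdown arrays and 1.43 and 1.43 in the controls. The summed signal of 15 leukocyte markers, back on a linear scale, was 51.4 and 61.4 in the knockdown arrays and 59.2 and 54.2 in the controls. Of these markers, 1 lay above the GC20 control in each knockdown array and 0 did in each control array. Fibroblast and endothelial markers (0 of 29) and luminal prostate markers (0 of 25) were likewise not high in replicate 1 alone. The part of this array's difference in the values of IL1A, IL1B, CXCL8 and CXCL2 was not tested.

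**Figure D5:**
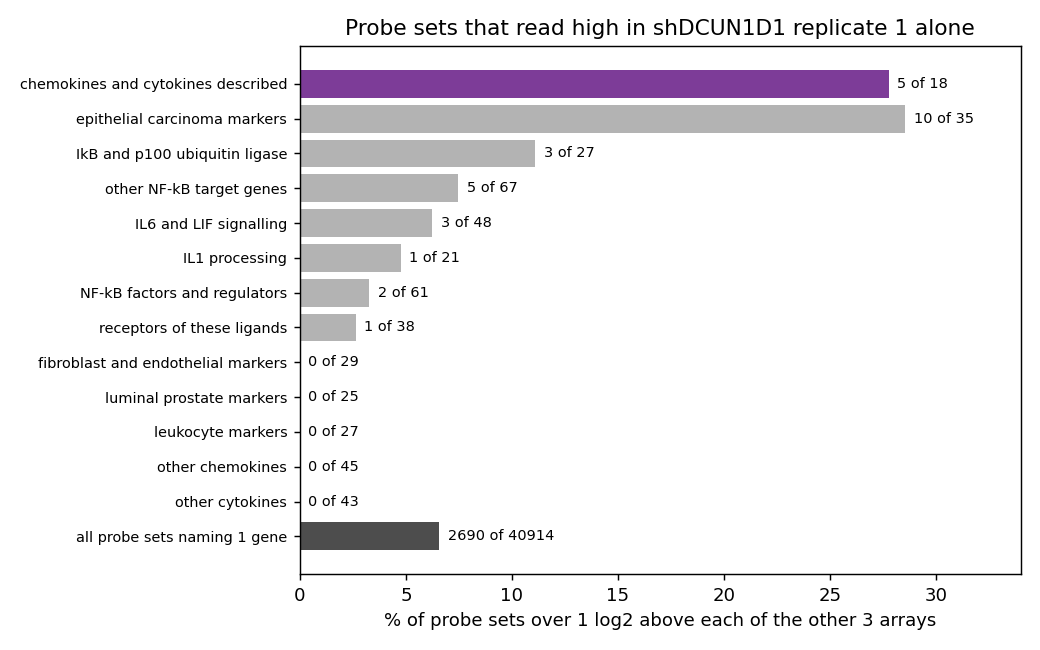
Share of probe sets that exceeded every other array by more than 1 log2 in shDCUN1D1 replicate 1, for the chemokines and cytokines described (purple), 12 other gene lists (light grey) and all probe sets naming 1 gene (dark grey), with counts beside the bars. The chemokines and cytokines (5 of 18) and the epithelial carcinoma markers (10 of 35) have the longest bars, and all probe sets have 2690 of 40914.

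Of 14 measured genes for receptors of these ligands, 0 passed the fold bound in either direction, with a median log2 fold change of −0.05 beside −0.01 over all genes. CXCR2, a receptor of CXCL1, CXCL2 and CXCL8, read 1.11 and 1.26 in the knockdown arrays and 1.35 and 1.38 in the controls. CXCR1, of the same list, went the other way, with 1.89 and 2.86 in the knockdown arrays and 1.80 and 1.43 in the controls. Its log2 fold change of 0.76 was not past the bound. LTBR, the receptor of lymphotoxin, read 3.23 and 3.24 in the knockdown arrays and 3.06 and 3.88 in the controls, and the groups overlapped. The receptors and pathway genes given here without a call were chosen after their values were seen. IL6ST, which encodes gp130, had a log2 fold change of 0.40, LIFR −0.04 and IL1R1 0.26.

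Among the other chemokines, 0 of 33 genes passed in either direction, with a median of −0.07 and a range from −0.75 for CCL17 to 0.41 for CCL19. CXCL3, the third close relative of CXCL1 and CXCL2, read 1.89 and 1.85 in the knockdown arrays and 2.06 and 2.63 in the controls. Among the other cytokines, 0 of 25 were higher and 1 was lower past the bound, with a median of −0.20. The lower one was OSM, oncostatin M, which acts through gp130 like IL6 and LIF. It read 1.71 and 1.45 in the knockdown arrays and 2.71 and 3.29 in the controls, a log2 fold change of −1.42 (SE 0.30; limma adjusted p over genes = 0.59). All 4 values lay under the GC20 control of their array. The mean over its 2 probe sets was −0.88, still past the bound.

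Of 27 NF-κB factors and regulators, 0 were higher and 1 was lower past the bound, with a median of 0.06. TAB1, a partner of the kinase TAK1 upstream of IκB kinase, read 2.39 and 2.28 in the knockdown arrays and 4.30 and 4.005 in the controls, a log2 fold change of −1.82 (SE 0.35; limma adjusted p over genes = 0.59). Its mean over 4 probe sets was −0.58 and not past the bound. NFKBIA, which encodes IκBα and is itself a target of NF-κB, read 5.59 and 4.95 in the knockdown arrays and 5.45 and 4.29 in the controls. The groups overlapped. These values lay above the GC20 control in every array, and below the nonspecific control with 25 G or C bases. RELA and NFKB1, the main subunits of NF-κB, had log2 fold changes of −0.01 and −0.12 on their brightest probe sets. RELA lay under the GC20 control in every array. Its other probe set read 1.79 and 1.87 in the knockdown arrays and 1.40 and 1.02 in the controls. The highest log2 fold change of the 27 genes was 3.30 for IRAK1, not past the bound. It read 8.21 and 2.03 in the knockdown arrays and 2.04 and 1.60 in the controls. Of 10 genes of the IκB ubiquitin ligase and its neddylation, 0 passed in either direction. The highest was NEDD8, with a log2 fold change of 1.54. It read 5.75 and 3.26 in the knockdown arrays and 3.22 and 2.70 in the controls. SKP1 read 6.23 and 3.46 in the knockdown arrays and 3.63 and 3.29 in the controls. CUL1, the scaffold of the ligase, read 4.54 and 5.51 in the knockdown arrays and 4.92 and 4.50 in the controls. BTRC and FBXW11, which encode the βTrCP receptors, had log2 fold changes of −0.34 and 0.19.

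Further from the ligands, 0 of 27 other NF-κB target genes and 0 of 19 genes of IL6 and LIF signalling passed the bound, with medians of −0.08 and −0.002. Of 10 genes that process interleukin-1, 0 were higher and 1 was lower: NLRP3, the sensor of the inflammasome that activates caspase-1, with 1.23 and 1.26 in the knockdown arrays and 1.81 and 1.89 in the controls. Its log2 fold change of −0.60 (SE 0.13; limma adjusted p over genes = 0.59) was taken at background signal, and the call was lost without knockdown replicate 1, without knockdown replicate 2, without control replicate 2 and as the mean of its 3 probe sets (−0.19).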

How the data were processed

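RNA of 4 DU145 cultures was hybridized to single-channel Affymetrix arrays, from 1 µg of total RNA each. The authors deposited 1 table of log2 signal per probe set and array. Affymetrix Expression Console stands in the submitters' processing notes and dChip with a smoothing spline in the paper's methods, so which of them made the values is unknown here. The methods also name another array type than the probe sets belong to. The scale was read as log2 from its range, and the table holds no detection calls. Gene names came from the platform annotation, and 40864 of 40914 were matched by gene ID to RefSeq. Control probe sets (102) and probe sets with several genes or none stayed out. No further scaling was applied.

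limma (version 3.58.1, in R 4.3.3) was fitted with a variance trend to all probe sets, and again to the brightest probe set of each gene for the lists. The fit was tested on simulated data in which all arrays had the same spread. An array that stands apart, as knockdown replicate 1 does, was not simulated. By rule, the text names the 10 genes, DCUN1D1 and, per list, up to 4 genes past the fold bound with separate groups. Any further gene was picked with its values in view. The members and the gene lists, written from general knowledge, were chosen with earlier results of these data known. Replicate numbers come from the sample titles.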

Additional observations from a re-analysis of the deposited data

How the results depend on the processing

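Neither the CCL5 nor the LTB call survived every alternative. The OSM call held in each of the 11 alternatives in which it was recorded, and the TAB1 call in 11 of 12. Calls of single genes were not recorded for the 1.5-fold bound and the 95% interval. The filter to genes above the nonspecific control removed OSM, so the call was not made there. Leaving out each array in turn gave 0 to 6 member probe sets higher and 0 to 1 lower past the fold bound, 0 to 5 and 0 to 1 member genes, and 0 to 11 higher and 3 to 5 lower genes over the other lists (main values 1 and 1, 1 and 1, and 0 and 3). The limma calls ranged from 0 to 4 higher and stayed 0 lower. The 6, 5, 11 and 4 were reached without knockdown replicate 2, where 9.8% of all probe sets and 11.4% of all genes were higher past the bound (the 11 are of 165 list genes) and limma called 6.31% of all probe sets higher. Over the other 3 such fits, 0.115% to 2.94% of probe sets and 0.197% to 3.59% of genes were higher. Over all of these fits, 1.23% to 3.36% of probe sets and 1.73% to 4.67% of genes were lower past the bound. Without control replicate 2 both member calls were lost, and without knockdown replicate 2 or control replicate 1 the LTB call was. Leaving out arrays gave log2 fold changes of −0.134 to 1.38 for CXCL2, −0.129 to 2.12 for CXCL8 and −0.00885 to 0.418 for IL6, each negative without knockdown replicate 1, and −0.0185 to 0.0261 for CCL2, negative without control replicate 2. Without a variance trend, 2 member probe sets and 2 member genes were lower (LIF joined LTB) and 5 list genes. As means over probe sets, 0 member genes were higher, 0 lower, and 1 list gene was lower. With only genes above the nonspecific control, chosen after seeing the data, 1 list gene was lower. Student's t-test, unadjusted, gave 2 lower member probe sets, LIF and CXCL1. The cause was not tested. Quantile normalization, median centring, a robust variance model, a 1.5-fold bound and a 95% interval left the counts of members unchanged. The fit with a replicate block gave 1 member probe set higher and 1 lower, as without it; same-numbered arrays deviated from their group means with a correlation of −0.04, so the numbers were not taken as pairs. A filter to genes above the median signal kept both calls but removed CXCL1, CXCL2, IL6 and CCL2. Low signal limits most values: 15 of 18 probe sets were not above the nonspecific control in both arrays of a group. Of all probe sets, 11.5% were above it.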
